A study of Mus musculus with 21 samples.

Results

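The retina of uncrushed C57BL/6 mice was followed across 2 postnatal ages. The P3_NTC group held 4 libraries of naive control retinas from wild-type pups at postnatal day 3, and the P1_NTC group held 4 libraries of naive control retinas at postnatal day 1, so that 8 of the 21 libraries of the series were compared. Neither group received an optic nerve crush (ONC). The crushed groups P3_ONC (4 libraries) and P1_ONC (3 libraries), collected after injury of the nerve at the same ages, and 3 E20_NTC libraries of uncrushed embryonic retinas are used only where the step from P1 to P3 is set against another step. The deposited table held 46 genes, which the authors had picked for their changes in these same libraries, and all of them other than Kdm5d, 45 genes, were analysed. The share of the table that changed is therefore no estimate for the transcriptome.

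Each library was 1 retina, and 1 litter was used at each age, so that age and litter cannot be told apart and the p-values measure the spread between single retinas. Library totals ran from 14221911 to 17756577 assigned fragments in P3_NTC and from 15699321 to 19064906 in P1_NTC. The 46 genes took 0.182% to 0.461% of these fragments in P3_NTC and 0.0836% to 0.0961% in P1_NTC. Levels are given as FPKM, the fragments per kilobase of gene length scaled to the total of assigned fragments. Kdm5d, a Y-linked gene, had 823 to 963 fragments in the 4 P3_NTC libraries, against 666, 658, 0 and 1 in P1_NTC replicates 1 to 4, so the P1_NTC group is mixed in a way that the P3_NTC group is not. P1_NTC replicates 1 and 2 were also the most alike of the P1_NTC pairs (chi-square 2.61 per gene). Replicates 3 and 4 came next (12.6), against 25.4 to 29.1 for the other P1_NTC pairs. The P3_NTC pairs gave 44.2 to 569, but this measure grows with the counts, which were higher for these genes in P3_NTC.

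In the mouse, the first days after birth are the time when the last progenitor divisions give rise to most rods, bipolar cells and Müller glia, while ganglion cells and cones were born before. Progenitors are kept dividing by growth factors, among them the fibroblast growth factors, and pass through competence states marked by transcription factors. A cell that takes the rod fate switches on Nrl, which acts with the homeodomain factor Crx to activate the genes of the outer segment and of phototransduction.

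All 6 photoreceptor genes of the table were higher at P3. The promoters of 3 of them are shown because each holds TAATCC, the core recognised by Crx and related homeodomain factors, or its reverse complement GGATTA. The window runs from 250 bases before to 50 bases after the RefSeq start (GRCm38.p6), 5′ to 3′ on the gene's strand, and the motif is in capitals. The windows lie at chr5:72642703-72643002 on the minus strand for Cnga1, chr6:3993758-3994057 on the plus strand for Gngt1 and chr17:47400557-47400856 on the minus strand for Guca1a.
Cnga1: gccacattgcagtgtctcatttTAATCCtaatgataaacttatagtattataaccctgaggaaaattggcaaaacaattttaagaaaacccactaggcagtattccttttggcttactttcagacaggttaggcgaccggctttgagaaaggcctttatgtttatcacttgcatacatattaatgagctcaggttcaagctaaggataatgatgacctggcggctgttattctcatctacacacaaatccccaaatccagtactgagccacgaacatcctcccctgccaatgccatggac
Gngt1: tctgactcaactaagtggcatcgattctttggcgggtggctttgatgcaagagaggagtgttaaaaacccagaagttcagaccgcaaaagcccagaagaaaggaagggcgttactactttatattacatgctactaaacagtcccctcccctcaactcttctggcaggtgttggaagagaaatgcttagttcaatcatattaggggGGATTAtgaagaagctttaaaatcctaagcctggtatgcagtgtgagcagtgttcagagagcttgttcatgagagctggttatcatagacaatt
Guca1a: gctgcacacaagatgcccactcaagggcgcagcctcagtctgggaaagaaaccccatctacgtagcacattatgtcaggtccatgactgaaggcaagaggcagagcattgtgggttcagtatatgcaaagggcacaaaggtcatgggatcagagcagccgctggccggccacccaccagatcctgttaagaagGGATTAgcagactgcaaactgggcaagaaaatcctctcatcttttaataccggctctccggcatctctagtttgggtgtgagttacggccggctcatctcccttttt
The match stood at −228 bases from the RefSeq start in Cnga1, at −44 in Gngt1 and at −57 in Guca1a. The whole Cnga1 window, and most of the Gngt1 window with its match, lie inside the gene spans used for counting. RefSeq promoters were matched for 33 of the 45 genes, among them 5 of the 6 photoreceptor genes. On either strand, TAATCC was present in 3 of these 5 and in 1935 of 27025 mouse promoters (7.16%). TGCTGA, the core of the site bound by Nrl, was in 0 of the 5, against 19.1% of all promoters, and TAATTA, a general homeodomain core, was in 0 of the 5, against 5.31%. None of the 5 windows holds more than 1 of these motifs, and a match is a description of letters, not of binding.

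Of 46 genes tested, 21 were higher in P3_NTC than in P1_NTC (45.7%) and 16 were lower (34.8%), 37 in all (80.4%). Calls needed a fold change above 1.5 and an adjusted p below 0.1 (edgeR quasi-likelihood F test, Benjamini-Hochberg adjustment over all 46). The median log2 fold change of all genes was 0.68. The median shift of the log2 fold change per gene was −0.25 under TMM scaling and −0.33 under scaling by median ratios. The directions given for genes that passed the test were the same under both. The lowest and highest libraries of the 2 ages left no overlap for 34 of the 46 genes (73.9%), and for 32 of the 37 genes called.

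All 6 photoreceptor genes rose, with a median log2 fold change of 5.15. Cnga1 (ENSMUSG00000067220, chr5:72603696-72644275, mm10), the channel subunit that carries the light-regulated current of rods, stood at 6.17, 14.3, 20.3 and 8.04 FPKM in P3_NTC replicates 1 to 4, against 0.128, 0.121, 0.0497 and 0.0705 FPKM in P1_NTC. Its lowest P3_NTC library was 48.1-fold above its highest P1_NTC library, and its log2 fold change was 7.03 ± 0.61 (SE, adjusted p = 1.63e-05). The gene was thus near the bottom of the FPKM scale in every P1_NTC retina and at a moderate level in every P3_NTC retina. Less RNA per cell and fewer cells of a type cannot be told apart in whole retinas, for this and for all genes below.

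Impg1, a proteoglycan of the matrix around the outer segments, averaged 8.71 ± 4.23 FPKM in P3_NTC and 0.233 ± 0.0832 FPKM in P1_NTC (SD, n = 4 each). Gngt1, the gamma subunit of rod transducin (chr6:3993792-3997436), had 31.0, 87.2, 127 and 46.01 FPKM in P3_NTC, against 1.24, 1.41, 2.39 and 3.50 FPKM in P1_NTC. Guca1a, which couples calcium to guanylate cyclase, had 40.4, 102, 135 and 59.0 FPKM in P3_NTC, against 1.59, 1.96, 4.99 and 7.52 FPKM in P1_NTC. The log2 fold changes were 5.21 ± 0.53 for Impg1, 5.09 ± 0.62 for Gngt1 and 4.39 ± 0.66 for Guca1a, with no overlap of the ages. For Guca1a and Gngt1 the P1_NTC libraries themselves spread, replicates 3 and 4 lying above replicates 1 and 2.

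Nrl (chr14:55518978-55524981), the factor that sets the rod fate, was the photoreceptor gene already well expressed at P1 and the one with the smallest fold change of the 6. Its levels were 192, 370, 494 and 230 FPKM in P3_NTC, against 41.1, 42.0, 42.4 and 45.3 FPKM in P1_NTC, and its log2 fold change was 2.91 ± 0.38 (adjusted p = 0.000175). The P1_NTC retinas were nearly level for Nrl, while its highest and lowest P3_NTC libraries differed by more than their P1_NTC counterparts. Across the 6 genes the highest P3_NTC library was 2.58-fold to 4.09-fold above the lowest, with coefficients of variation of 43.0% to 59.3%. Each of the 6 calls held when any 1 library was left out, and when P1_NTC replicates 3 and 4, which lack Kdm5d, were left out together.

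**Figure D1:**
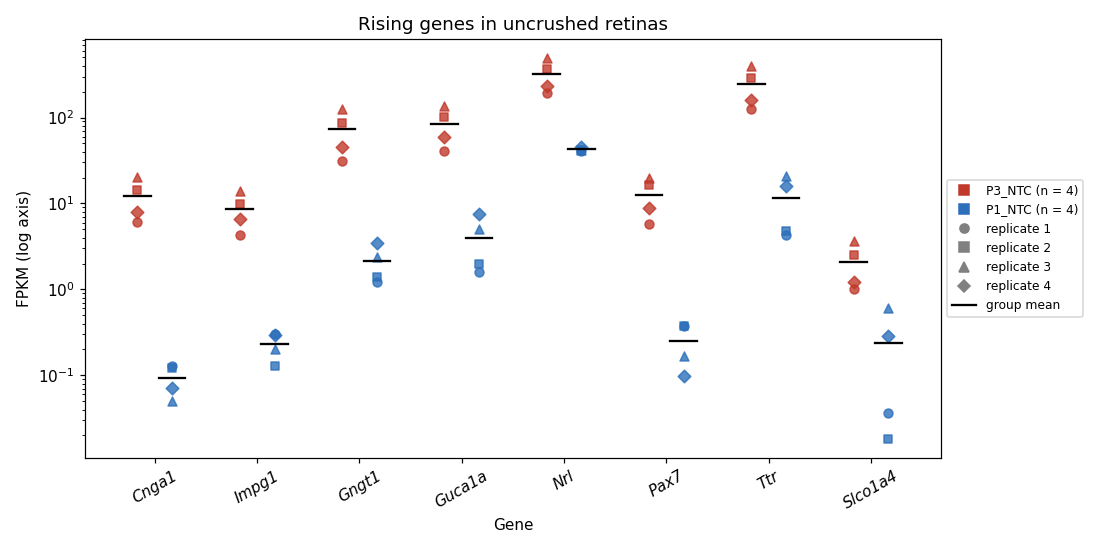
FPKM (log axis) of risen genes in each of the 4 P3_NTC libraries and each of the 4 P1_NTC libraries, 1 point per retina and a bar at the group mean. Every photoreceptor gene shown has its lowest P3_NTC point above its highest P1_NTC point, by 4.24-fold for Nrl and by 48.1-fold for Cnga1.

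The genes of fibroblast growth factor (FGF) signalling moved the other way, all 3 being lower in P3_NTC, with a median log2 fold change of −2.62. The ligand gene Fgf3 (chr7:144838083-144844436) had 0.799, 0.218, 0.272 and 0.660 FPKM in P3_NTC, against 8.54, 9.07, 10.8 and 8.30 FPKM in P1_NTC, a log2 fold change of −4.22 ± 0.49 (adjusted p = 8.85e-05). Fgf15 (chr7:144896531-144900953), a neighbour of Fgf3 on the chromosome and a ligand made by retinal progenitors, had 10.3, 3.72, 2.35 and 8.10 FPKM in P3_NTC, against 39.5, 46.5, 40.0 and 24.8 FPKM in P1_NTC. Etv4, an ETS factor induced by FGF signals, averaged 3.24 ± 0.936 FPKM in P3_NTC and 8.84 ± 1.40 FPKM in P1_NTC (SD, n = 4 each). All 3 genes were separated between the ages in every library. The log2 fold changes of Fgf15 and Etv4 were −2.62 ± 0.51 and −1.45 ± 0.33. Fgf15 shares 25.7% of its exon bases with 2 noncoding genes on the other strand, one of them Gm39119, and since the strand setting of the counting is not stated their reads cannot be told apart.

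Of 7 transcription factors of progenitors and early neurons, 6 were lower in P3_NTC and 1, Sox1, did not pass. Foxn4, needed for amacrine and horizontal cells in the mouse, had 10.3, 6.68, 6.49 and 11.6 FPKM in P3_NTC, against 39.3, 39.9, 38.4 and 29.9 FPKM in P1_NTC. Atoh7, required for ganglion cells, had 9.90, 9.37, 3.71 and 7.54 FPKM in P3_NTC, against 29.5, 29.1, 36.9 and 32.8 FPKM in P1_NTC. The 2 genes fell by nearly the same amount, with log2 fold changes of −2.07 ± 0.33 (adjusted p = 0.000419) for Foxn4 and −2.07 ± 0.37 (adjusted p = 0.000971) for Atoh7.

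The Iroquois homeobox genes Irx1 and Irx2, neighbours on chromosome 13, were both lower, with log2 fold changes of −2.25 ± 0.46 and −1.80 ± 0.48. Irx1 had 0.161 to 0.664 FPKM in P3_NTC, against 1.35 to 1.86 FPKM in P1_NTC, and Irx2 had 0.364 to 1.63 FPKM in P3_NTC, against 2.46 to 5.10 FPKM in P1_NTC. Sox14, a SoxB2 gene of early neurons, was nearly absent at P3, with 0, 0, 1 and 1 fragments in P3_NTC against 18, 13, 10 and 2 in P1_NTC. The ratio of its summed counts, P3_NTC over P1_NTC, was 0.0494 (95% interval 0.0058 to 0.19, counting error only). Sall3, a zinc finger factor of the developing retina, overlapped between the ages, at 2.25, 7.58, 5.43 and 3.11 FPKM in P3_NTC against 6.29, 6.998, 16.3 and 12.8 FPKM in P1_NTC. Its log2 fold change was −1.21 ± 0.49 (adjusted p = 0.045), and the call was lost without P1_NTC replicate 3 (−0.92), without P3_NTC replicate 4 (−1.06) and without P1_NTC replicates 3 and 4 together (−0.53). Sox1, a SoxB1 gene of neural progenitors, had 0.0992 to 0.356 FPKM in P3_NTC, against 0.0479 to 0.183 FPKM in P1_NTC (log2 fold change 0.71 ± 0.57, adjusted p = 0.273).

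**Figure D2:**
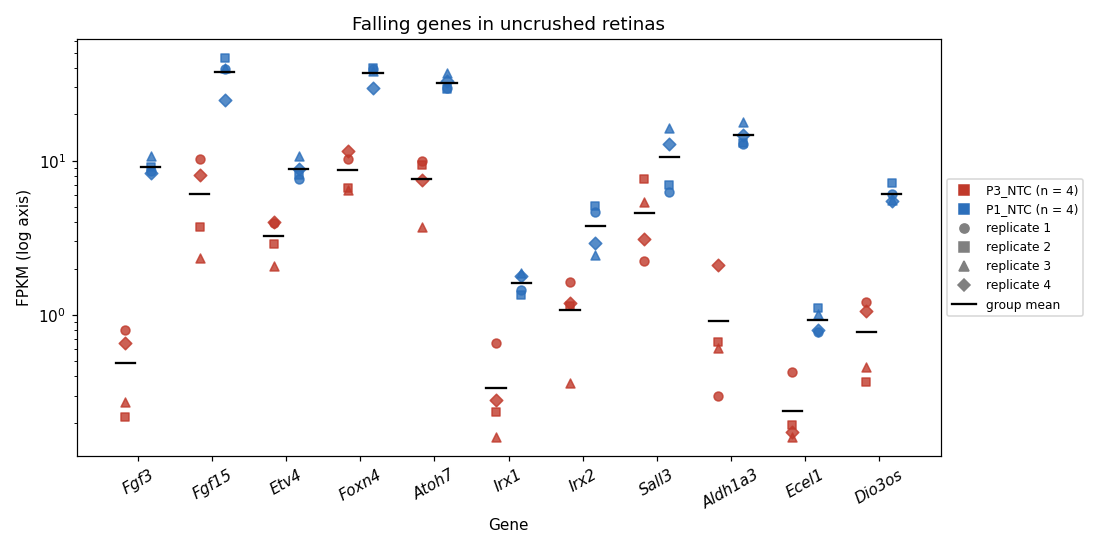
FPKM (log axis) of fallen genes in each of the 4 P3_NTC libraries and each of the 4 P1_NTC libraries, 1 point per retina and a bar at the group mean. P3_NTC replicates 1 and 4 lie above replicates 2 and 3 for Fgf3, Fgf15 and Etv4, and all 4 lie under every P1_NTC library for these genes.

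Among enzymes and others, Aldh1a3, which makes retinoic acid in the ventral eye of the mouse, was lower in P3_NTC, at 0.299, 0.671, 0.609 and 2.10 FPKM, against 12.8, 13.1, 17.9 and 14.8 FPKM in P1_NTC (log2 fold change −3.99 ± 0.61, adjusted p = 0.000408). Its value was −4.79 without P3_NTC replicate 4, which stood above the other P3_NTC libraries. Ecel1, a neuronal endopeptidase, and Aspg, an asparaginase, were lower too, by log2 fold changes of −1.94 ± 0.40 and −1.15 ± 0.39. Cpne1, a calcium-dependent membrane-binding protein, was counted at 5, 7, 2 and 10 fragments in P3_NTC against 1 in each P1_NTC library, and 84.1% of its exon bases are shared with Rbm12 and Gm28036 on the same strand, so its value (log2 2.51 ± 0.54) is uncertain. The noncoding RNAs Dio3os and Gm39119 fell, with log2 fold changes of −2.96 ± 0.45 and −2.46 ± 0.49. Dio3os, transcribed opposite the deiodinase gene Dio3, had 0.368 to 1.21 FPKM in P3_NTC, against 5.45 to 7.14 FPKM in P1_NTC. Gm39119 had 0.178 to 0.630 FPKM in P3_NTC, against 1.27 to 2.73 FPKM in P1_NTC, and shares 2.73% of its exon bases with Fgf15.

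The other transcription factors split, with 6 of 12 higher, 2 lower and 4 that did not pass (median log2 fold change 0.87). Pax7, a paired box factor best known from muscle precursors and the dorsal neural tube, was the one that rose most among those with reads at both ages. It had 5.74, 16.3, 19.9 and 8.93 FPKM in P3_NTC, against 0.376, 0.372, 0.1701 and 0.0978 FPKM in P1_NTC, a log2 fold change of 5.64 ± 0.65 (adjusted p = 8.85e-05). Its rise was of the size seen in the photoreceptor genes, and its lowest P3_NTC library was 15.3-fold above its highest P1_NTC library. Creb5, a cyclic AMP response factor, and Bhlhe41, a repressor of the circadian clock, rose by log2 fold changes of 1.95 ± 0.31 and 1.19 ± 0.38, and their libraries did not overlap. Bhlhe41 had 1.36 to 2.72 FPKM in P3_NTC, against 0.587 to 1.26 FPKM in P1_NTC. With genes on the other strand, Bhlhe41 shares 19.0% of its exon bases, Nfkb2 18.1%, Cryaa 13.2% and Zfp296 12.9%. As for Fgf15, the reads of these shared bases cannot be told apart.

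Nfatc4, a target of calcineurin, and Spdef, an ETS factor of secretory epithelia, were lower, with log2 fold changes of −1.24 ± 0.34 and −1.41 ± 0.33. Zfp296 rose by 1.42 ± 0.44 on the log2 scale at 0.0905 to 0.138 FPKM in P3_NTC against 0.0257 to 0.0625 FPKM in P1_NTC, and DESeq2 did not call it (adjusted p = 0.132 with the same library totals). Gm4981 had 0.0911 to 0.417 FPKM in P3_NTC, against 0 to 0.0687 FPKM in P1_NTC (log2 2.75 ± 0.70). AW822073 had 39 fragments in P3_NTC and 0 in P1_NTC, which puts it at least 13.8-fold higher in P3_NTC against a floor of 3 counts over the group. Zfp692 was separated between the ages, at 11.9 to 17.8 FPKM in P3_NTC against 9.56 to 10.6 FPKM in P1_NTC, yet its log2 fold change of 0.56 ± 0.28 (adjusted p = 0.0873) lay under the fold threshold, and it passed at 0.65 without P3_NTC replicate 2. Hnf4g, a nuclear receptor, did not pass (−0.82 ± 0.44, adjusted p = 0.111), but did at −1.08 without P3_NTC replicate 1. With all libraries kept it passed under TMM scaling (−1.09), DESeq2 median ratios (−1.16) and the fit of all 6 groups (−0.82). The zinc finger genes Zfp97 and Zfp960 gave 0.17 ± 0.32 and 0.25 ± 0.34 and turned to −0.092 and −0.017 under TMM scaling. Whether reads are split between them was not tested.

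All 3 immediate early genes, which neurons and glia switch on within minutes of stimulation, were higher in P3_NTC, and Egr1 was the clearest. Egr1 had 1.56, 4.41, 5.79 and 4.59 FPKM in P3_NTC, against 1.29, 1.46, 1.02 and 0.682 FPKM in P1_NTC (log2 fold change 1.88 ± 0.45, adjusted p = 0.00433). Fos had 0.739, 1.89, 2.51 and 3.89 FPKM in P3_NTC, against 0.886, 0.551, 1.27 and 0.758 FPKM in P1_NTC, and Fosb had 0.0576, 0.0451, 0.360 and 0.679 FPKM in P3_NTC, against 0.0371, 0.0377, 0.0924 and 0.0612 FPKM in P1_NTC. The ages overlapped for both, and both calls rested on P3_NTC replicate 4, without which the log2 fold changes were 0.98 for Fos (1.38 ± 0.51 with it) and 1.39 for Fosb (2.29 ± 0.85 with it). P3_NTC replicate 1 lay within the P1_NTC range for Fos and just above it for Egr1.

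Among injury genes, Lcn2, the iron-binding lipocalin of reactive glia (chr2:32384633-32388252), passed the test, with most of its reads in 2 retinas. It had 7, 8, 100 and 394 fragments in P3_NTC, against 0, 1, 1 and 0 in P1_NTC, a ratio of summed counts of 270 (95% interval 74.5 to 2239, counting error only). The fitted log2 fold change was 7.79 ± 1.67, and 6.18 without P3_NTC replicate 4. Gstp2, a glutathione transferase, and Nfkb2, a subunit of NF-kappaB, did not pass (adjusted p = 0.679 and 0.183). Gstp2 had 0.0779 to 0.548 FPKM in P3_NTC, against 0, 0, 0.954 and 0.414 FPKM in P1_NTC replicates 1 to 4. Its log2 fold change of −0.48 ± 1.08 turned to 0.84 without P1_NTC replicate 3, and was 4.70 (adjusted p = 0.0244) without P1_NTC replicates 3 and 4, the libraries that lack Kdm5d. Nfkb2 was at 0.406 to 0.802 FPKM in P3_NTC, against 0.176 to 0.562 FPKM in P1_NTC, a log2 fold change of 0.64 ± 0.42 that became 1.24 and passed without those 2 libraries.

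Genes of tissues that adjoin the retina also differed between the uncrushed ages. Ttr, the carrier of thyroxine and retinol-binding protein made by the pigment epithelium, had 124, 291, 396 and 159 FPKM in P3_NTC, against 4.32, 4.74, 21.0 and 16.1 FPKM in P1_NTC (log2 fold change 4.39 ± 0.69). Slco1a4, an organic anion transporter, rose by 3.13 ± 0.97 on the log2 scale, and by 4.20 without P1_NTC replicate 3. Summed FPKM of the 2 genes ran from 125 to 400 in P3_NTC and from 4.36 to 21.7 in P1_NTC, with both markers detected in every library. For Slco1a4, however, P1_NTC replicates 1 to 4 held only 4, 2, 75 and 29 fragments, so its value in replicates 1 and 2 is limited by depth. The part of the adjoining epithelium in the photoreceptor values was not tested. Cryaa, an abundant lens crystallin, ranged widely, at 0.188, 8.44, 1.76 and 1.68 FPKM in P3_NTC against 0.159, 0.0230, 0.185 and 1.17 FPKM in P1_NTC. Its log2 fold change was 2.98 ± 1.22 (adjusted p = 0.046), 4.59 without P1_NTC replicate 4, and 1.66 with the call lost without P3_NTC replicate 2.

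Markers of the optic nerve head gave no common direction. Pax2, a factor of its astrocyte precursors, had 1.83, 1.81, 0.195 and 1.36 FPKM in P3_NTC, against 1.57, 1.84, 1.24 and 0.848 FPKM in P1_NTC (log2 −0.08 ± 0.59, adjusted p = 0.894), and its sign turned without P1_NTC replicate 2 (0.09) or P3_NTC replicate 3 (0.28). Mlc1, a membrane protein of astrocytes and Müller glia, had 8.75, 9.97, 1.38 and 3.00 FPKM in P3_NTC, against 2.34, 3.01, 1.52 and 1.57 FPKM in P1_NTC. Its log2 fold change of 1.45 ± 0.60 (adjusted p = 0.0476) no longer passed without P1_NTC replicate 3 (1.33), P1_NTC replicate 4 (1.34), P3_NTC replicate 1 (1.18) or P3_NTC replicate 2 (1.06). Both markers were lowest in P3_NTC replicate 3, the library with the most photoreceptor RNA.

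**Figure D3:**
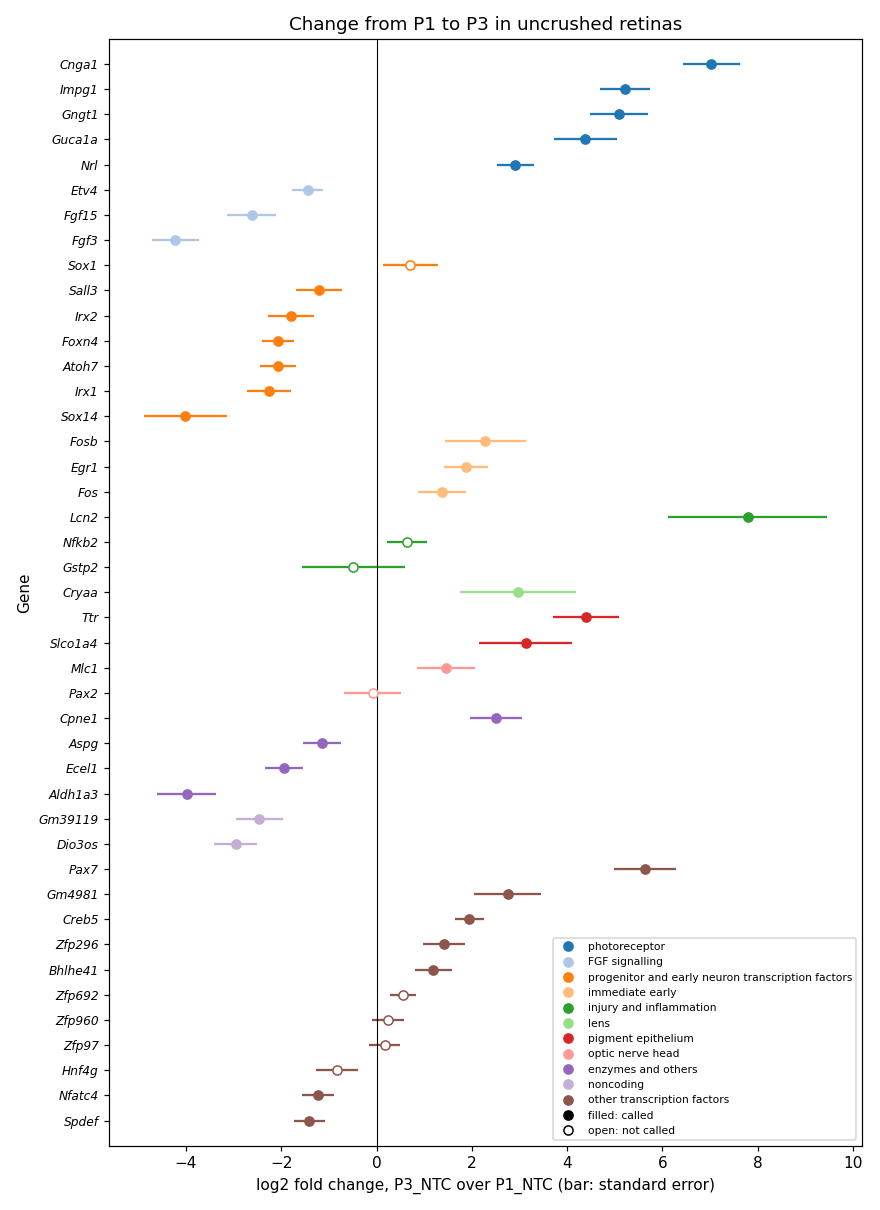
Log2 fold change of P3_NTC over P1_NTC with its standard error for the named genes, grouped by list, without AW822073, which has 0 counts at P1. The 5 photoreceptor genes shown lie between 2.91 and 7.03 and the 3 FGF genes between −4.22 and −1.45.

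The 4 P3_NTC retinas did not stand at the same point. For all 6 photoreceptor genes and both pigment epithelium genes the order of the libraries was replicate 3 over 2 over 4 over 1, and Pax7 and Bhlhe41 followed the same order. Against the mean of the other 3 libraries, the median photoreceptor gene stood at a log2 value of 1.06 in P3_NTC replicate 3, 0.29 in replicate 2, −0.63 in replicate 4 and −1.26 in replicate 1. The FGF genes ran the opposite way, at −1.04 in replicate 3, −0.89 in replicate 2, 0.57 in replicate 4 and 1.06 in replicate 1. By these list medians replicate 3 lay furthest from the P1_NTC levels and replicate 1 nearest, but single genes differed. Fgf3 was lowest in replicate 2, Etv4 was highest in replicate 4, and Aldh1a3 was lowest in replicate 1.

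Among the 21 risen genes, replicate 3 was the highest P3_NTC library for 12, replicate 4 for 5, replicate 2 for 3 and replicate 1 for 1, while replicate 1 was the lowest for 14. Among the 16 fallen genes, replicate 3 was the lowest for 9 and replicate 1 the highest for 10. The 6 progenitor and early neuron factors with reads in every P3_NTC library, Sox1 included, were at a median of −1.004 in replicate 3 and 0.42 in replicate 1, with values near 0 in the others. Pigment epithelium genes gave nearly the photoreceptor values (1.14, 0.35, −0.87 and −1.24 in replicates 3, 2, 4 and 1), so that the order of the P3_NTC libraries in photoreceptor genes and in genes of the adjoining epithelium cannot be told apart. The immediate early genes had another order, with replicate 4 highest at 1.18 and replicate 1 lowest at −1.90. These positions are descriptions, since genes of 1 library are not replicates.

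The P1_NTC retinas showed no such common order. Their photoreceptor medians lay between −0.44 and 0.30, while the pigment epithelium genes spread from −2.82 in replicate 2 to 1.88 in replicate 3. At P1, Gngt1, Guca1a and Ttr were higher in replicates 3 and 4, and Cnga1 and Pax7 were higher in replicates 1 and 2.

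**Figure D4:**
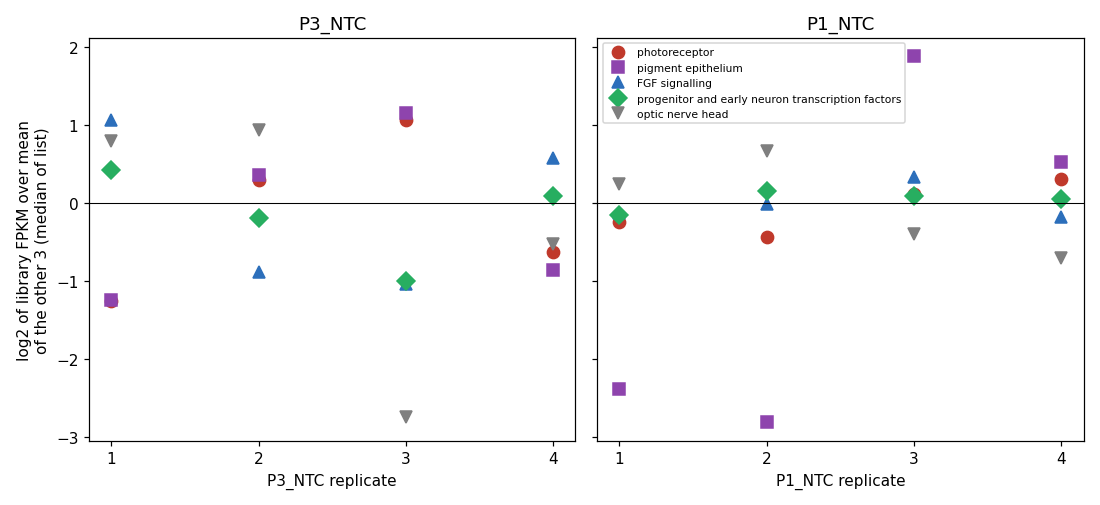
Position of each library within its group, as log2 of its FPKM over the mean of the other 3, for P3_NTC (left) and P1_NTC, with the median of each gene list. Photoreceptor and pigment epithelium genes share the order 3, 2, 4, 1 in P3_NTC, with photoreceptor medians from −1.26 to 1.06, against −0.44 to 0.30 in P1_NTC.

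The same age step was measured in the crushed retinas, which share no library with the uncrushed ones. By the paper, all mice of an age came from 1 litter, crushed or not. Age and litter therefore cannot be told apart in this step either, nor by setting the 2 steps side by side. Of 46 genes, 19 were higher in P3_ONC than in P1_ONC (41.3%) and 12 were lower (26.1%), 31 in all (67.4%). Of the 45 genes analysed, 27 were called in the same direction in both steps and 0 in opposite directions. The 27 are 73.0% of the 37 called without crush, where 67.4% of all 46 genes were called after crush. They are 87.1% of the 31 called after crush, where 80.4% of all 46 genes were called without crush. Both shares thus lie near those of the whole table. All 6 photoreceptor genes were again higher, with a median log2 fold change of 3.45, and Cnga1 had 6.48, 5.29, 4.14 and 12.1 FPKM in P3_ONC, against 0.139, 0.127 and 0.116 FPKM in P1_ONC replicates 1, 2 and 4. The 3 FGF genes were lower (median −1.96), Fgf3 by −2.61 ± 0.39. Pax7 rose by 4.68 ± 0.61. The pigment epithelium genes rose in the crushed step too, Ttr by 3.00 ± 0.67 and Slco1a4 by 2.88 ± 0.87 on the log2 scale. Their summed level ran from 4.57 to 17.6 FPKM in P3_ONC and from 0.739 to 2.61 FPKM in P1_ONC. The P3_ONC range thus lay within that of P1_NTC (4.36 to 21.7 FPKM) and below that of P3_NTC (125 to 400 FPKM). At the same age these genes therefore differed between crushed and uncrushed libraries, and the reason was not tested. Cryaa ran from 0.113 to 59.6 FPKM in P3_ONC and from 2.82 to 16.1 FPKM in P1_ONC. The part of the pigment epithelium genes in the photoreceptor values was not tested here either.

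The immediate early genes did not pass in the crushed step. Fos had 7.11, 5.34, 29.3 and 2.47 FPKM in P3_ONC, against 8.31, 7.74 and 9.45 FPKM in P1_ONC, and Fosb had 0.157, 0.220, 2.18 and 0.470 FPKM in P3_ONC, against 2.42, 1.78 and 1.15 FPKM in P1_ONC. Sall3, lower in uncrushed retinas, had a log2 fold change of 0.28 ± 0.31 in crushed ones (adjusted p = 0.454), and Sox1 passed there at 2.15 ± 0.48. The difference between the steps was tested itself as an interaction, and 0 of 46 genes were called by edgeR, with 12 at an unadjusted p under 0.05 and a lowest adjusted p of 0.115. DESeq2 called 8 with the same totals and 13 with median ratios. The edgeR count was 9 without P3_ONC replicate 3, 5 without P3_NTC replicate 1, and 1 without P1_ONC replicate 4, P3_NTC replicate 3 or P3_NTC replicate 4. Among the 12 were Impg1, with a difference of −1.89 ± 0.62 on the log2 scale (crushed minus uncrushed), Gngt1 and Fosb, at −1.77 ± 0.64 and −3.52 ± 1.31, and Fgf3, at 1.62 ± 0.59.

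**Figure D5:**
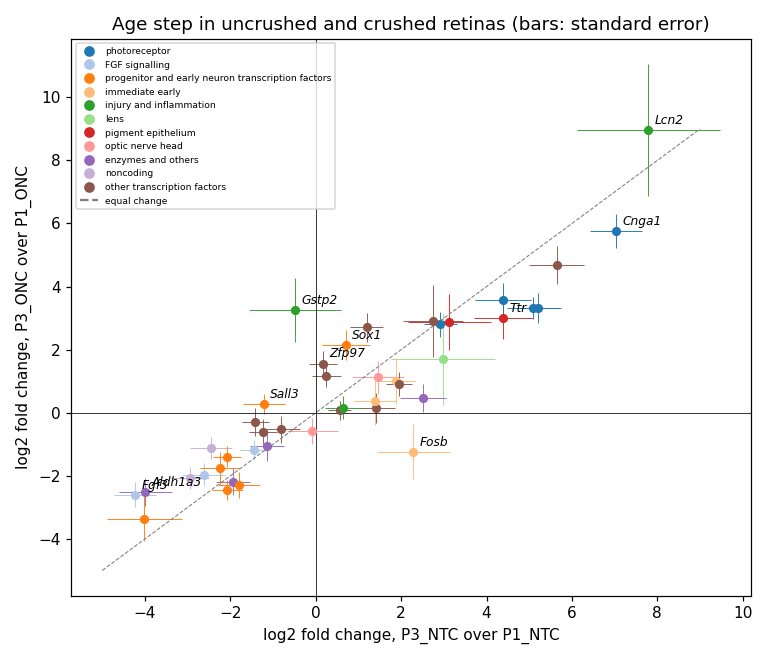
Log2 fold change of P3 over P1 in crushed retinas (P3_ONC over P1_ONC) against the same step in uncrushed retinas (P3_NTC over P1_NTC), 1 point per named gene with standard errors as bars and a dashed line of equal change, without AW822073. Points called in both steps lie in the upper right and lower left. The 27 genes called in the same direction include AW822073 and 1 gene not reported here, which are not drawn.

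The step from P1 to P3 was also set against that from E20 to P1, with the P1_NTC libraries shared by both and taken into account in the contrast. The later step exceeded the earlier one for 11 of 46 genes (23.9%) and was lower for 7 (15.2%), 18 in all (39.1%). Signed log2 changes were compared, so genes that fell from E20 to P1 and then rose are also among the 11. Such were AW822073, Lcn2, Cpne1, Gm4981, Zfp296 and Zfp692, whose difference was larger than their rise from P1 to P3. Lcn2 and Cpne1 had few fragments at E20 and P1. The difference was 3.92 ± 1.36 on the log2 scale for Cnga1 (adjusted p = 0.0543) and 1.62 ± 0.65 for Nrl. Cnga1 had only 0, 1 and 2 fragments in the E20_NTC libraries, so its earlier step is limited by depth. The difference did not pass for Impg1 (1.93), Guca1a (2.03) or Pax7 (2.44, adjusted p = 0.106). Fgf3, at −3.46 ± 0.70 (adjusted p = 0.0139), and Aldh1a3, at −3.35 ± 0.86, fell further in the later step, and Etv4 gave −2.34 ± 0.52 after a peak at P1, with 4.93, 5.88 and 3.51 FPKM in E20_NTC. For Fgf15 and Atoh7 the difference between the steps was −0.95 and −1.01 and did not pass. The count depended on single libraries. It was 5 without E20_NTC replicate 2, 11 without E20_NTC replicate 3, 7 without P1_NTC replicate 1, 10 without P1_NTC replicate 2, 5 without P1_NTC replicate 3, and 6 without P1_NTC replicates 3 and 4.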

How the data were processed

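Polyadenylated RNA of single retinas was sequenced. Alignment by the authors was to mm10 (HISAT2 2.0.5). Counts of fragments per gene came from featureCounts 1.5.0-p3 and were deposited unnormalized. The FPKM values, as deposited by the authors, are these counts per kilobase of gene length, scaled to the total of assigned fragments. The strand setting is not given in the sources used here. Of 51 entries, 5 repeats were dropped, which left 46 genes. As library size served each library's assigned fragments, as implied by count, FPKM and gene length, and no composition factor was used.

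Groups came from the sample labels. Genes with at least 10 counts summed were tested in edgeR 4.0.16 under R 4.3.3 (quasi-likelihood F test, no abundance trend), with p-values adjusted after Benjamini and Hochberg over all 46 genes. Calls needed a fold change above 1.5 and an adjusted p below 0.1. The interaction and the contrast of steps were called at an adjusted p under 0.1 without a fold threshold. The standard error is the size of the log2 fold change over the square root of F. Intervals of count ratios cover counting error only, at 95%. The 45 genes other than Kdm5d were analysed by 11 lists of known role and named, except 1 that enters the counts and medians but is not reported here. The members and lists were chosen with earlier results of these data known. Alternatives were DESeq2 1.42.0, TMM factors, limma 3.58.1 on log2(FPKM + 0.1) or log2(FPKM + 1), other filters and thresholds, a fit of all 6 groups, the replicate number as a block, gene sets left out and each library left out. Leaving out the 2 P1_NTC libraries that lack Kdm5d was added after seeing the data. Scripts were tested on simulated data. Python 3.11.15 with pandas 2.3.3, scipy 1.17.1 and matplotlib 3.10.9 served for tables and figures. Exon sharing was read from GENCODE for GRCm38 and promoters from RefSeq.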

Additional observations from a re-analysis of the deposited data

Results flagged for a closer look

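In 6 of 89 groups of 4 libraries, 1 per gene and age, a single library stood apart from the other 3, its gap to the nearest one being a larger part of the whole range than Dixon's critical value for 4 samples allows. Chance alone flags about 5% of such groups. Among P3_NTC libraries, replicate 4 stood high for Sox1 at 0.356 FPKM (gap over range 0.887) and replicate 1 stood high for Ecel1 at 0.428 FPKM (0.879). Among P1_NTC libraries, replicate 4 stood low for Foxn4 at 29.9 FPKM (0.849) and for Gm39119 at 1.27 FPKM (0.832), and high for Cryaa at 1.17 FPKM (0.859). Replicate 1 of P1_NTC stood high for Hnf4g at 0.639 FPKM (0.901).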

How the results depend on the processing

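The counts of 21 higher and 16 lower genes in P3_NTC stayed within 1.5 times under all alternatives other than limma on log2(FPKM + 1), which called 12 higher. The same setting called 12 higher in P3_ONC against P1_ONC, where edgeR called 19. Leaving out 1 library gave 19 to 21 higher and 15 to 17 lower genes without crush, and 15 to 19 higher and 12 to 13 lower genes after crush. The interaction, with 0 calls, gave 13 with DESeq2 median ratios, 8 with DESeq2 on implied totals, 7 in the fit of all 6 groups, 7 without Kdm5d, 7 without the lens, pigment epithelium and optic nerve head genes, 1 with limma on log2(FPKM + 1), and 0 to 9 with 1 library left out. The contrast of steps, with 18 calls, gave 6 at an adjusted p under 0.05, 6 without the 2 P1_NTC libraries that lack Kdm5d, and 5 to 23 with 1 library left out. The cause of these shifts was not tested.

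Replicate numbers are not pairs, since the ages are different mice, and 2 of 4 same-numbered pairs had a correlation over 0.1 (−0.301 to 0.359). With the replicate block, 21 genes were higher and 16 lower in P3_NTC, and the interaction called 1. Signs turned only for genes that had not passed: Gstp2 gave 0.016 with the block, 0.20 with limma on log2(FPKM + 0.1), 4.70 without the 2 P1_NTC libraries and −1.13 to 0.84 with 1 library left out. Zfp97 gave −0.092 with TMM and −0.16 with median ratios, Zfp960 −0.017 and −0.069, and Pax2 −0.29 to 0.28 with 1 library left out. Of the 45 genes, 24 kept direction and side of the threshold in all 21 settings. Genes with few fragments, such as Cpne1, Sox14 and AW822073, are limited by depth.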
